A study of Mus musculus with 24 samples.

Results

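The miRNAs of the Mir199a and Mir214 hairpins described here are 5 mature mouse miRNAs, mmu-miR-199a-3p, mmu-miR-199a-5p, mmu-miR-199b-5p, mmu-miR-214-3p and mmu-miR-214-5p (the species prefix is left out below). They were taken by name from the 1881 miRNAs on the array, and all 5 were found on each of the 24 arrays. The arrays measured 8 tissues of male C57BL/6J mice (sclera, RPE/choroid, iris, cornea, lens, retina and the brain regions labeled SCN and LGN) in 3 groups, with 1 array for each tissue and group. The normal eyes wore no lens. In the lens-induced group a −30 D lens, which the eye answers with myopia, was fixed on the right eye at 3 weeks of age for 3 weeks, and in the 0D group the labels name a 0 D lens. The tissue called RPE/choroid here is named choroid in the labels. RNA of 3 mice was mixed for each ocular array of the normal and −30 D groups, so that the spread between animals was not measured. All 8 arrays of a slide came from the same lens group, and effects of lens and of slide cannot be told apart. Each tissue also had the same place on all 3 slides, so that tissue and array position cannot be told apart.

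miR-199a and miR-214 are known from the mesenchyme of the embryo and from fibroblasts of connective tissue. Dnm3os, a long non-coding RNA, is the precursor transcript of the Mir199a-2 and Mir214 hairpins. Each hairpin is cut into a 5p and a 3p arm, and bases 2 to 8 of an arm, the seed, pair with target mRNAs. The sclera is a collagen-rich coat made by fibroblasts, the corneal stroma holds keratocytes, and the stroma of choroid and iris holds fibroblasts and melanocytes, whereas the lens is epithelial and the retina and the brain are mostly neural.

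The mature sequences show which of these miRNAs are identical, and 4 of the 5 members, all but miR-199b-5p, had an entry in the RefSeq table (build GRCm38.p6). They are given 5′ to 3′ with the seed in capitals.
miR-199a-3p: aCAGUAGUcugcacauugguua
miR-199a-5p: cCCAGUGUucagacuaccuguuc
miR-214-3p: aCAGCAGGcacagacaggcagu
miR-214-5p: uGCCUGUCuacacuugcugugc
No seed was shared among these 4 members. The 3p arm of the Mir199b hairpin had the same sequence as miR-199a-3p, so that the row of miR-199a-3p covers RNA from all 3 miR-199 hairpins.

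The hairpins lie within dynamin genes. Mir199a-2 lies at chr1:162217814-162217923 on the plus strand and Mir214 at chr1:162223368-162223477, with 5444 bases between them. Both lie inside Dnm3os (chr1:162217623-162225550) and on the strand opposite to Dnm3. Mir199a-1 lies at chr9:21496495-21496564 on the minus strand, inside Dnm2 and opposite to it, and Mir199b at chr2:32318460-32318569 on the plus strand, inside Dnm1 and also opposite to it. The 3 miR-199 hairpins are shown with the stretch that equals miR-199a-3p in capitals.
Mir199a-2: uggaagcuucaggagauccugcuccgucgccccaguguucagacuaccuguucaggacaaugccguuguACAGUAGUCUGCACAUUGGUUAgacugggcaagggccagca
Mir199a-1: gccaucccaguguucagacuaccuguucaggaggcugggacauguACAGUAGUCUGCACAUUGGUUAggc
Mir199b: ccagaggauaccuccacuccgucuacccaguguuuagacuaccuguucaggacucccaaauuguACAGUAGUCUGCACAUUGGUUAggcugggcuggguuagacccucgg
The 5′ arm of Mir199b matched miR-199a-5p with 1 substitution, C10U, counted from the first base of miR-199a-5p. Bases 2 to 8 of this stretch, the seed, were the same as in miR-199a-5p. Exchange of signal between the probes of miR-199a-5p and miR-199b-5p was not tested.

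On each array 129 to 249 of the 1881 miRNAs were detected, and no spot was saturated. Detection required 1 probe or more with a signal above 3 times its own error, and the signal of a miRNA is the sum over such probes. The signals are intensities in arbitrary units. They were scaled between arrays by the 75th percentile of those 79 miRNAs that all 24 arrays detected. Scaling moved single arrays by −1.01 to 1.66 on the log2 scale. The RNA came from whole tissue pieces, so that fewer cells of a type and less RNA per cell cannot be told apart. The number of arrays, 3 for each tissue, limits the precision.

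Among the members, miR-199a-3p was detected on 18 of 24 arrays, miR-199b-5p on 21, miR-199a-5p on 12, miR-214-3p on 11 and miR-214-5p on none. Sclera, RPE/choroid, iris and cornea accounted for all detections of miR-199a-5p and miR-214-3p. The sclera held the highest signal of each detected member on each slide.

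Values of 3 arrays are given below in the order normal, 0 D and −30 D. miR-199a-3p had a scaled signal of 907, 929 and 832 in the sclera and of 354, 367 and 349 in the RPE/choroid. The cornea followed with 227, 249 and 220.4, and the iris with 93.0, 100.2 and 84.0. The 4 tissues did not overlap, and the groups within a tissue lay close together. The retina had 3.63, 4.02 and 4.78. In the SCN the normal array gave 10.5 and the other 2 arrays no detection, and in the LGN 2 arrays gave 3.31 and 3.33. No lens array detected miR-199a-3p, with detection limits above 21.9 there.

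miR-199b-5p, the 5p arm of the Mir199b hairpin, had a signal of 1052, 949.7 and 958 in the sclera. The cornea came next with 339, 308 and 309, above the RPE/choroid with 267, 271 and 283. The iris had 149, 141 and 134. RPE/choroid and cornea thus stood in the opposite order to that of miR-199a-3p, and the 4 tissues again did not overlap. All 9 arrays of retina, SCN and LGN detected miR-199b-5p, at 3.05 to 5.09 in the retina, 3.59 to 11.1 in the SCN and 5.05 to 7.08 in the LGN. The lens arrays did not detect it.

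miR-199a-5p, the other arm of the miR-199a hairpins, was dimmer on its probes. Its scleral signal was 122, 133 and 104. The RPE/choroid had 46.7, 54.1 and 46.2, the cornea 22.6, 23.5 and 20.3, and the iris 9.11, 9.23 and 7.44. The tissues stood in the order of miR-199a-3p and did not overlap.

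miR-214-3p, from the hairpin that shares Dnm3os with Mir199a-2, had 185, 203 and 153 in the sclera. The RPE/choroid had 77.8, 98.3 and 74.6. It dropped to 13.4, 11.9 and 11.8 in the iris. In the cornea the 0 D array gave 10.9 and the −30 D array 12.1, and the normal array gave no detection with a limit of 24.6. The sclera and the RPE/choroid lay above the other tissues, and iris and cornea overlapped.

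miR-214-5p, the other arm of that hairpin, was not above 3 errors with any of its 4 probes on any of the 24 arrays. Its detection limit was 7.03 to 11.2 in the sclera and 4.35 to 6.37 in the iris, so that a level below these could not be seen.

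**Figure D1:**
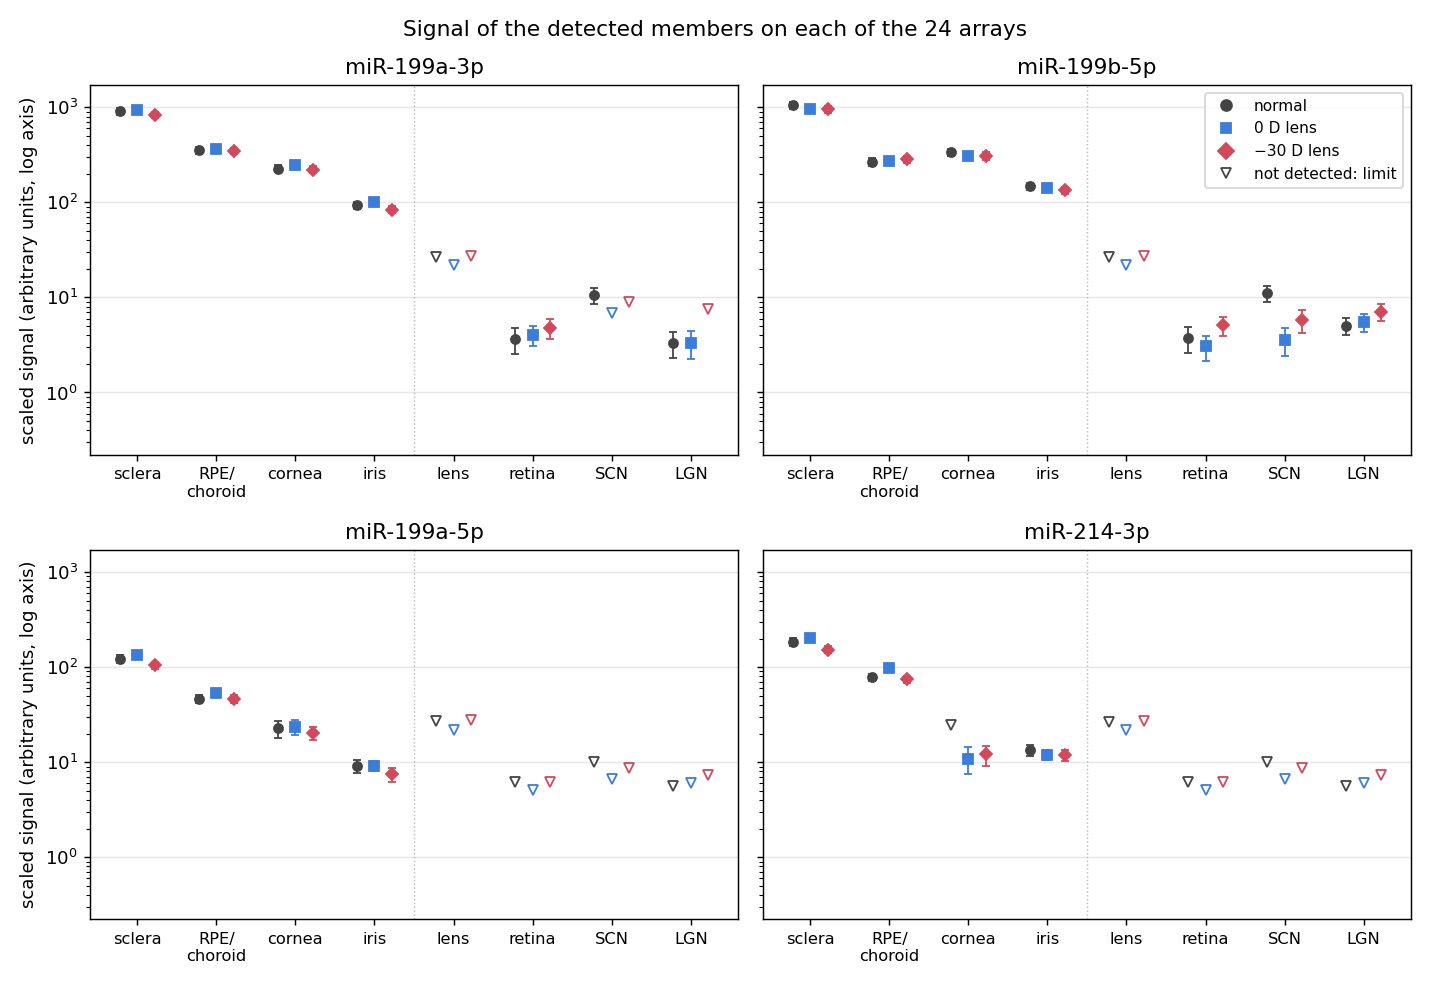
Scaled signal (arbitrary units, log axis) of the 4 detected members on each of the 24 arrays, by tissue and lens group. Bars are the error of the signal within an array, and open triangles mark the detection limit where a member was not detected. The sclera was highest for each member, miR-199a-5p and miR-214-3p were not detected right of the dotted line, and the limits of the lens arrays, 21.9 to 27.6, lay above those of the retina.

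The question of how far the 4 tissues stood above lens, retina and brain was addressed with a limma fit of tissue and lens group on all 24 arrays. In this fit undetected values and values under 9.93 were set to that common floor. Both sets of tissues were named with earlier results of these data known, so that the differences describe a size. miR-199b-5p had the largest difference of 352 miRNAs tested, with 5.05 ± 0.02 on the log2 scale (SE, limma adjusted p = 4.0e-25), and miR-199a-3p the next with 4.84 ± 0.02 (adjusted p = 1.3e-24). miR-214-3p differed by 1.92 ± 0.05 (limma adjusted p = 4.0e-15) and miR-199a-5p by 1.76 ± 0.03 (limma adjusted p = 5.1e-17). For comparison, 102 of the 352 miRNAs were higher in the 4 tissues (29.0%) and 141 lower (40.1%). miR-214-5p was never detected and was not tested. miR-199a-5p and miR-214-3p entered the fit only through the tissues where they were high, so that they had to differ. The floor lowers these differences and gives the low tissues almost no spread, and the p-values cover only the spread between 3 arrays of different lens groups. Of the 352 miRNAs, 46 were at the floor on all arrays and could not be called.

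Where the low tissue measured a member, its fold was taken from the scaled signals. In retina, SCN and LGN at most 1 of the 2 probes of miR-199a-3p and miR-199b-5p was above 3 errors, against both in sclera and iris. The folds below thus set 1 probe against a sum of 2 and are overstated. On the shared probe, miR-199a-3p read 643 to 712 in the sclera and 3.63 to 4.78 in the retina. The sclera had 216 times the miR-199a-3p signal of the retina, with 174 to 249.8 over the 3 slides. For miR-199b-5p the sclera had 255 times the retinal signal (188 to 311), 161 times that of the SCN (95.2 to 265) and 169 times that of the LGN (135 to 208). The iris, the lowest of the 4 tissues, had 22.4 times the miR-199a-3p and 36.5 times the miR-199b-5p of the retina. The retinal signals of miR-199a-3p were close to detection, at 3.63 to 4.78 with errors of 0.94 to 1.13. Sizes also depended on the scaling. The retina held 0.40% to 0.57% of the scleral miR-199a-3p with scaling and 0.60% to 0.999% without it. For miR-199b-5p these values were 0.32% to 0.53% and 0.53% to 0.92%. By the same unlike number of probes, these shares are understated.

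Against the lens only bounds were possible, because the lens arrays detected none of the members. The sclera was at least 35.1-fold higher than the lens for miR-199a-3p, at least 38.8-fold for miR-199b-5p, at least 7.11-fold for miR-214-3p and at least 4.71-fold for miR-199a-5p. The iris signals of miR-199a-5p and miR-214-3p lay under the detection limits of the lens arrays, which are summed over 2 probes. Whether iris and lens differed could not be told from these limits. The corneal signals of miR-199a-5p lay under them on 2 of 3 slides. They came from 1 probe, at 20.3 to 23.5. On the lens arrays this probe read 0.87 to 2.53 with errors of 3.66 to 4.58, below its corneal signals. Against the retina, the sclera was at least 31.0-fold higher for miR-214-3p and at least 20.5-fold higher for miR-199a-5p.

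The order among the 4 tissues was tested in the same fit. Of 24 differences (4 members over 6 pairs of tissues), 23 passed the threshold. The sclera was above the RPE/choroid by 1.85 for miR-199b-5p, 1.32 for miR-199a-3p, 1.29 for miR-199a-5p and 1.11 for miR-214-3p on the log2 scale (limma, highest adjusted p = 5.1e-07), where 12.2% of the miRNAs tested were higher and 9.94% lower in the sclera. The difference of miR-199b-5p was the largest of all 352 miRNAs in this pair. The sclera was above the cornea by 1.63 to 4.04, where 25.6% of all miRNAs were higher and 12.5% lower in the sclera, and the largest value was that of miR-214-3p. It was above the iris by 2.80 to 3.86 with 21.0% of all miRNAs higher and 17.6% lower in the sclera.

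The RPE/choroid was above the iris by 0.95 for miR-199b-5p and by 1.95 to 2.75 for the other 3 members, where 13.1% of all miRNAs were higher and 13.9% lower in the RPE/choroid. Since miR-199a-5p in the iris lay under the floor, its differences to the iris are understated. For miR-214-3p in the cornea, 1 of 3 arrays stood at the floor. The RPE/choroid was above the cornea by 0.62 for miR-199a-3p, 1.14 for miR-199a-5p and 2.92 for miR-214-3p (22.4% of all miRNAs were higher and 14.5% lower in the RPE/choroid), whereas miR-199b-5p had a difference of −0.22 (limma adjusted p = 0.00036). The iris was below the cornea, with differences of −1.33, −1.17 and −1.15 for miR-199a-3p, miR-199b-5p and miR-199a-5p, where 20.2% of all miRNAs were higher and 19.6% lower in the iris, and these turned to 0.14, 0.30 and 0.10 without scaling. For miR-214-3p the iris minus cornea difference was 0.18 and did not pass the threshold (limma adjusted p = 0.21).

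The place of the cornea depended on the scaling. Without scaling, the iris minus cornea differences of miR-199a-3p, miR-199a-5p and miR-199b-5p did not pass the threshold (limma adjusted p = 0.67, 0.72 and 0.25), and the iris was above the cornea by 1.58 for miR-214-3p (limma adjusted p = 1.1e-08). The RPE/choroid was then above the cornea by 1.03 for miR-199b-5p (limma adjusted p = 0.00021). With quantile normalization this difference was −0.09, and with the lowest detected signal of each array as floor −0.22. Neither passed the threshold (limma adjusted p = 0.49 and 0.47). The corneal arrays detected 137 to 172 miRNAs and the iris arrays 213 to 234. With normexp background correction the iris minus cornea difference of miR-214-3p was −0.96 and the RPE/choroid minus cornea difference of miR-199a-5p −0.35 (limma adjusted p = 2.3e-08 and 0.0043). The order of sclera above RPE/choroid and of RPE/choroid above iris kept its direction under each setting tried, but sizes changed. Without scaling, the sclera was above the RPE/choroid by 1.285 for miR-199b-5p, 0.75 for miR-199a-3p, 0.72 for miR-199a-5p and 0.55 for miR-214-3p. With undetected values at 0.1 in place of the floor, the sclera and RPE/choroid difference stayed at 1.32 for miR-199a-3p and 1.11 for miR-214-3p, but with SEs of 1.31 and 1.11 neither passed the threshold (limma adjusted p = 0.72 for both), and the RPE/choroid and iris differences of these members did not pass either (limma adjusted p = 0.38 and 0.082).

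**Figure D2:**
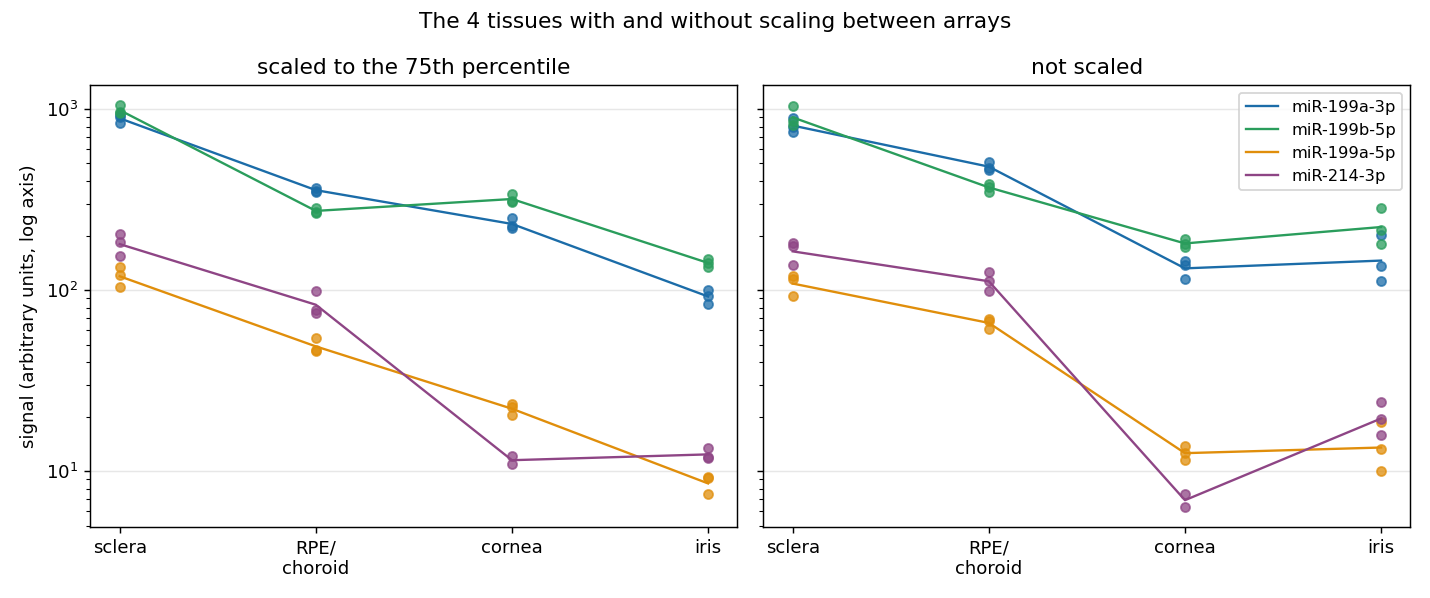
Signal (arbitrary units, log axis) of the 4 detected members in the 4 tissues, with scaling between arrays (left) and without it (right). Points are arrays on which the member was detected, 3 for each tissue except 2 for miR-214-3p in the cornea, and lines join geometric means. With scaling the iris lay below the cornea for miR-199a-3p, miR-199b-5p and miR-199a-5p, and without it their points overlapped.

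Ratios between members of the same array do not depend on the scaling. As probes differ in brightness, such a ratio is not a ratio of amounts, and only its change between tissues was read, with the brighter probe of each member. The log2 ratio of miR-199b-5p to miR-199a-3p was 0.33 ± 0.12 in the sclera, −0.21 ± 0.07 in the RPE/choroid, 0.62 ± 0.14 in the cornea and 0.78 ± 0.11 in the iris (SD, n = 3 arrays). The RPE/choroid arrays lay below all others. Relative to miR-199a-3p, miR-199b-5p was therefore 0.53 higher in the sclera than in the RPE/choroid, with 0.46 to 0.62 over the slides, and the RPE/choroid minus iris difference of this ratio was −0.99, with −1.05 to −0.92.

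The ratio of miR-214-3p to miR-199a-3p was −2.11 ± 0.12 in the sclera, −1.91 ± 0.17 in the RPE/choroid and −2.53 ± 0.14 in the iris. In the cornea the 0 D array gave −4.11 and the −30 D array −3.83, the lowest values of the 4 tissues. On these 2 arrays miR-214-3p thus fell further than miR-199a-3p from sclera to cornea. Its corneal signals were close to detection, at 10.9 and 12.1 with errors of 3.39 and 2.90. The ratio of miR-199a-5p to miR-199a-3p, arms of the same hairpins, was −2.66 ± 0.10 in the sclera, −2.65 ± 0.10 in the RPE/choroid, −3.01 ± 0.06 in the cornea and −3.07 ± 0.07 in the iris. The sclera and the RPE/choroid overlapped, and both lay above cornea and iris. With normexp background correction, the sclera minus cornea difference was 1.22 for miR-214-3p and 0.51 for miR-199a-5p, below the 1.6 of miR-199a-3p. The sclera minus iris differences were 2.17 and 1.85, below its 2.81. The larger fall of miR-214-3p and miR-199a-5p to cornea and iris thus did not hold under that setting. Its offset of 50 shrinks the differences of dim miRNAs more than those of bright ones, and both members were dimmer than miR-199a-3p. The setting therefore cannot decide the point.

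Of 15 pairs of tissues with 3 arrays each for these 3 ratios, 11 did not overlap. Over 211 other miRNAs set against the same probe of miR-199a-3p, 85.0% of such pairs did not overlap, so that the count of the members is no result about them. Matched by slide, 14 of the 15 differences had the same sign on all 3 slides, beside 91.8% for the other miRNAs. The exception was miR-199a-5p between sclera and RPE/choroid, with −0.03 to 0.02. Where arrays overlapped, the differences within slides were −0.29 to −0.11 for miR-214-3p between sclera and RPE/choroid, 0.09 to 0.20 for miR-199b-5p and −0.06 to −0.04 for miR-199a-5p between iris and cornea. An exact two-sided permutation test of 3 against 3 arrays cannot go below p = 0.1, nor one of signs over 3 slides below p = 0.25, so that none of the 15 could pass the threshold. The adjusted values of the first were 0.14 to 0.8.

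**Figure D3:**
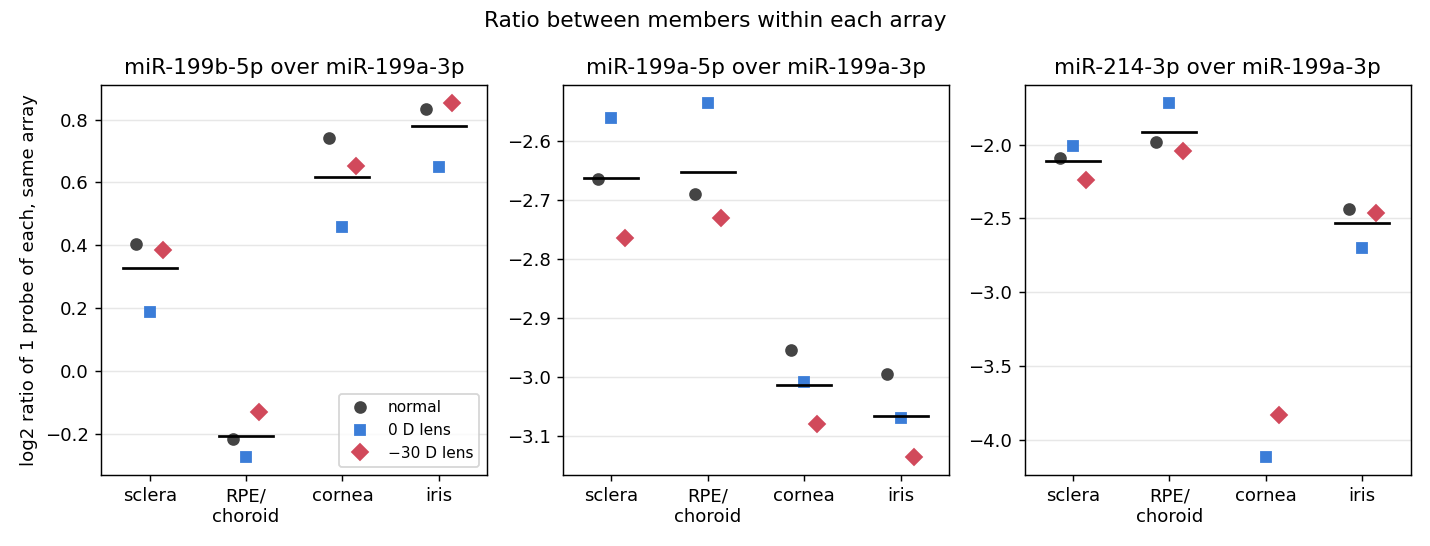
Log2 ratio of 1 probe of miR-199b-5p (left), miR-199a-5p (middle) and miR-214-3p (right) to 1 probe of miR-199a-3p on the same array, for 4 tissues. Points are arrays by lens group and bars the mean of 3 arrays, and the axes of the panels differ. miR-199b-5p was lowest against miR-199a-3p in the RPE/choroid, and miR-214-3p in the cornea.

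Each member has its own probes, and these gave the same order. Both probes of miR-199a-3p ranked sclera, RPE/choroid, cornea and iris from high to low, and both of miR-199b-5p ranked sclera, cornea, RPE/choroid and iris. Only 1 of 2 probes of miR-199a-5p was above 3 errors in cornea and iris, and only 1 of 2 of miR-214-3p outside sclera and RPE/choroid.

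Marker miRNAs of other cells moved with the tissues too. The neural and retinal list (5 miRNAs, led by the neuronal miR-124-3p) summed to 11070 to 12350 in the retina. Its sum was 752 to 1202 in the RPE/choroid, and the sclera had 429 to 706, with miR-9-5p and miR-138-5p undetected in the sclera and miR-138-5p in the RPE/choroid. The retina itself held 0.40% to 0.57% of the scleral miR-199a-3p signal with scaling and 0.60% to 0.999% without it. These shares set 1 probe in the retina against 2 in the sclera and are understated. The 7 miRNAs of stratified epithelium were all detected in the cornea, with a sum of 2578 to 2943, and none in sclera, RPE/choroid, lens, retina, SCN and LGN. The iris detected 6 of them, with a sum of 45.8 to 63.2 and miR-203-3p undetected. miR-143-3p and miR-145a-5p of smooth muscle summed to 319 to 331 in the iris. The sclera had 24.1 to 39.9 and the RPE/choroid 42.0 to 44.6, both with miR-145a-5p undetected, and neither was detected in the cornea. The endothelial miR-126a-3p had a geometric mean of 1141 in the RPE/choroid, against 333 in sclera samples. The 4 miRNAs of cartilage summed to 334 to 412 in the sclera, and to 199 to 216 for the RPE/choroid, with miR-455-5p undetected in both. The 3 miRNAs of photoreceptors summed to 14500 to 16170 in the retina and to 441 to 1094 in the sclera, with all 3 detected in both. In the RPE/choroid they reached 814 to 1436, against 20.5 to 32.8 in the iris and at most 244.5 in the cornea. The 4 miRNAs of striated muscle were highest in the lens, with a sum of 686.4 to 757.4 and all 4 detected, and summed to 152.5 to 330.3 in the sclera. They were at 83.9 to 132 for the RPE/choroid, 84.5 to 96.4 in the iris and 73.3 to 118 in the cornea, with miR-206-3p undetected in these 3 tissues. The 6 miRNAs of blood cells summed to 67.3 to 89.6 in the sclera, with 4 of them undetected. They were at 92.2 to 122.8 for the RPE/choroid, 70.4 to 87.1 in the iris and at most 37.5 in the cornea. miR-204-5p and miR-211-5p of pigment cells summed to 571 to 745 in the sclera. The RPE/choroid had 829.8 to 1009, the iris 1067 to 1211 and the lens, which has no pigment cells, 1227 to 1377. The part of these cell types in the levels of the members was not tested.

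Other miRNAs known from fibroblasts and mesenchyme differed in both directions. Of 23 listed, 19 were tested in the fit of the 4 tissues against lens, retina and brain, 15 were higher, 3 lower and 1 did not pass the threshold, with a median difference of 0.82 on the log2 scale against 0 over all 352 miRNAs. Among all miRNAs tested 29.0% were higher and 40.1% lower. The largest differences were those of miR-27a-3p (2.23), miR-143-3p (2.20) and miR-152-3p (2.0). miR-152-3p, which targets a DNA methyltransferase, fell from 99.4 in the sclera to 52.6 in the RPE/choroid, 33.7 in the iris and 14.2 in the cornea. miR-143-3p was highest in the iris with a mean of 307, against 33.0 in the sclera. miR-218-5p was lower in the 4 tissues, with a difference of −2.32, and so were miR-29c-3p and miR-29b-3p, which repress collagen mRNAs, with −1.43 and −0.71. miR-29a-3p, of the same family and list, was higher by 0.36 (limma adjusted p = 8.9e-05). Its mean was 1130 in the sclera, against 111 in the lens and 1370 in the retina. miR-125b-5p had a difference of 0.01 (limma adjusted p = 0.88).

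**Figure D4:**
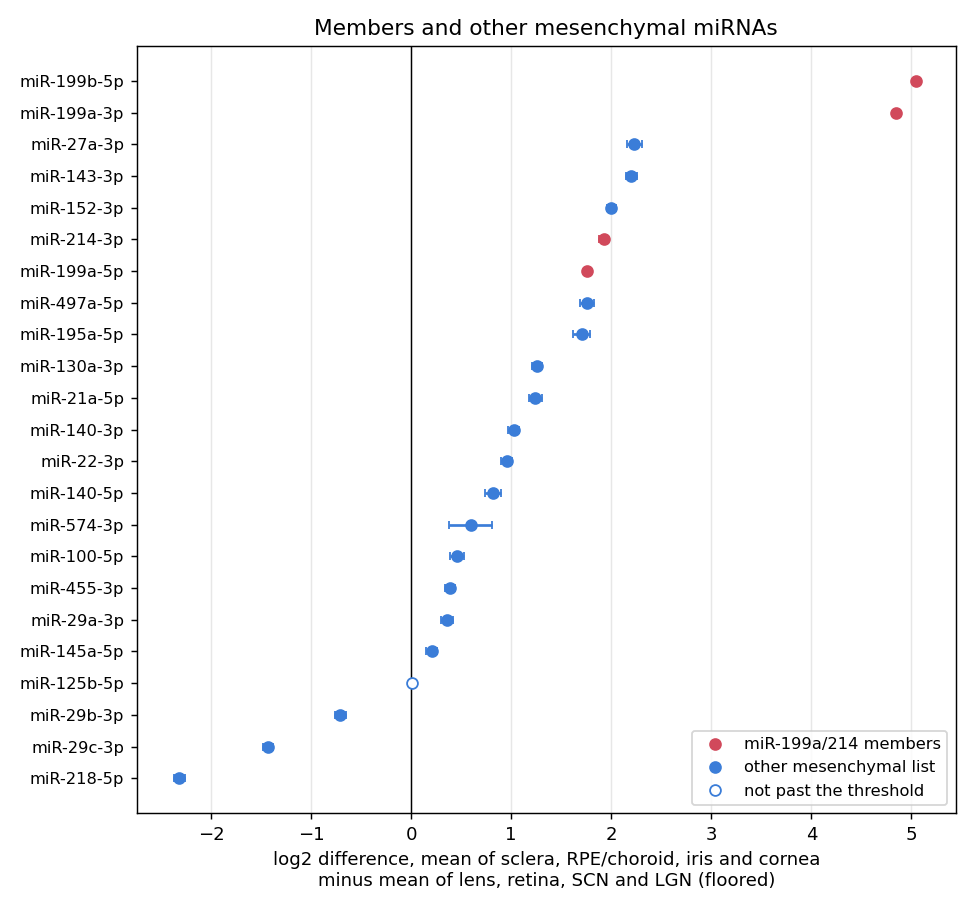
Log2 difference between the mean of sclera, RPE/choroid, iris and cornea and the mean of lens, retina, SCN and LGN for 4 members (red) and 19 other mesenchymal miRNAs (blue), with undetected values at the floor. Bars are the SE of the limma fit over 24 arrays, many of them smaller than the points. miR-199b-5p (5.05) and miR-199a-3p (4.84) lay above all listed miRNAs, and miR-218-5p (−2.32) was the lowest.

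Among the members, miR-199a-3p and miR-199b-5p had the most similar pattern (Pearson r = 0.99 over 8 tissue means of the floored log2 signal), and miR-199a-5p and miR-214-3p the next (r = 0.96). Of 301 other miRNAs detected on at least 6 arrays, miR-6918-5p was most like both miR-199a-3p and miR-199b-5p (r = 0.97 for each), with means of 40.7 in the sclera, 20.8 in the RPE/choroid, 20.1 in the cornea and 18.3 in the iris. Over the 24 arrays its r was 0.72 and 0.73, below the 0.87 and 0.86 of miR-1187, the next in likeness over tissues (r = 0.97 and 0.96). miR-3470a was most like miR-199a-5p (r = 0.98) and miR-3473a most like miR-214-3p (r = 0.998), with means of 52.7 in the sclera and of 33.9 in the RPE/choroid and the floor in the other tissues. These values describe 8 tissues on shared slides, with the means of the low tissues at or near the floor.

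Whether lens wear changed the members was asked in the 12 arrays of the 4 tissues (limma with a term for each tissue). No member passed the threshold in any contrast, and neither did any of the 259 miRNAs tested, so that 0.0% were called in each direction. At an unadjusted p under 0.05 there were 30 miRNAs for −30 D against normal, 22 for 0 D against normal and 34 for −30 D against 0 D. With the −30 D lens the differences to normal were −0.08 for miR-199a-3p (95% interval −0.16 to −0.01), −0.10 for miR-199a-5p (−0.24 to 0.04), −0.08 for miR-199b-5p (−0.18 to 0.02) and −0.06 for miR-214-3p (−0.34 to 0.22) on the log2 scale (limma adjusted p = 0.33, 0.56, 0.50 and 0.92). These are means over the 4 tissues, with the spread between tissues as the error. Some values stood at the floor. miR-214-3p did so in the normal cornea, where it was undetected, and its difference was −0.17 to 0.015 with 1 tissue left out. miR-199a-5p stood at the floor on each iris array and so entered without change there, whereas its measured log2 ratio in the iris was −0.29.

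The smallest p of the members was that of miR-199a-3p between both lens groups. It was 0.17 lower with the −30 D than with the 0 D lens (95% interval 0.09 to 0.24 lower), in 4 of 4 tissues, with limma adjusted p = 0.061. Summing all probes brought this to 0.049, and leaving out the 32 miRNAs at the floor on all 12 arrays to 0.14. Within the arrays, the ratio of miR-199b-5p to miR-199a-3p was lowest on the 0 D array in each of the 4 tissues, for example 0.19 against 0.40 and 0.39 in the sclera. All 0 D arrays lay on 1 slide, so that a change by lens and a change by slide cannot be told apart.

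Within single tissues there is 1 array for each condition and thus no test. The log2 ratios of the members to the normal array in the 4 tissues were −0.29 to 0.09 for −30 D and −0.17 to 0.34 for 0 D, 15 ratios each, and none was beyond 2 errors of the signals. The study counted a miRNA as changed beyond 2-fold, or beyond 5-fold where 1 of the arrays did not detect it. With undetected values at the floor no member was counted by this measure in the 4 tissues, beside 7.86% of all miRNA and tissue pairs for −30 D and 6.39% for 0 D. With undetected values at 0.1, as in the deposited normalized table, these shares were 22.9% and 18.3%, and miR-214-3p in the cornea was then counted as higher with both lenses. In the lens, retina, SCN and LGN 1 pair was counted with undetected values at the floor. It was miR-199b-5p in the SCN, which had 11.1 in the normal array and 3.59 with the 0 D lens, with errors of 2.01 and 1.17. At 0.1, miR-199a-3p was also counted as lower, in the SCN with both lenses and in the LGN with −30 D. The share over all miRNAs in these tissues is not given, so that these counts are no result about the members. miR-214-3p in the cornea was detected with both lenses and not in the normal eyes, whose detection limit of 24.6 lay above both signals, so that no fold can be given.

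**Figure D5:**
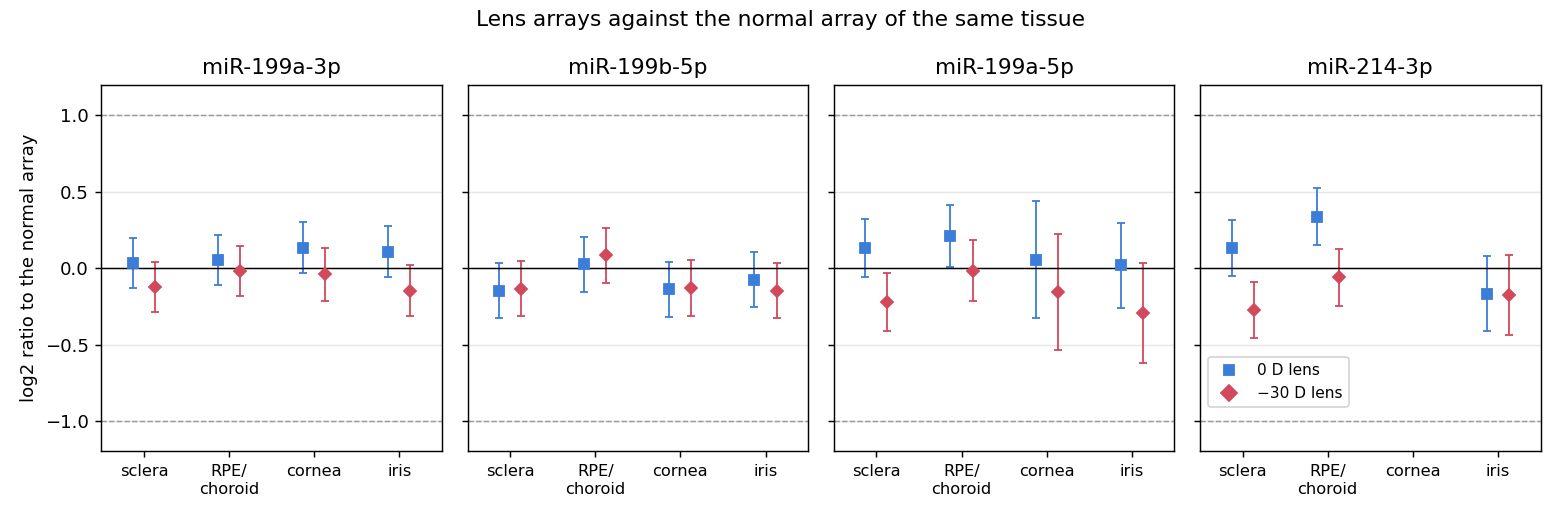
Log2 ratio of the 0 D (squares) and −30 D (diamonds) array to the normal array of the same tissue for the 4 detected members. Bars are the error propagated from the signals of both arrays, dashed lines mark a 2-fold change, and miR-214-3p in the cornea has no ratio because the normal array did not detect it. All 30 ratios lay between −0.29 and 0.34.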

How the data were processed

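The authors hybridized 100 ng of total RNA per array to 1-color Agilent mouse miRNA arrays and deposited scanner files made with Feature Extraction 10.7.1.1. Each file holds, per the file headers, the background-subtracted total probe intensity with its error for every probe. The normalized table of the authors was not used here, since the letters that name its groups have more than 1 reading. The signal of a miRNA was the sum over its probes above 3 errors, and this rule gave the detection flag of the files for all 45144 values. Scaling used the 75th percentile of the 79 miRNAs that every array detected, and undetected values and lower ones were set to a floor of 9.93 for the fits. This floor is the highest of the lowest detected signals of the arrays. Detection limits are the larger of 3 errors summed over the probes and the lowest detected signal of the array. A signal above this limit is always detected, and a lower one may be where 1 probe alone passes 3 errors.

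limma 3.58.1 under R 4.3.3 was fitted with tissue and lens group on 24 arrays (352 miRNAs detected on at least 3) and, for the lens groups, on the 12 arrays of sclera, RPE/choroid, iris and cornea (259 miRNAs), with Benjamini-Hochberg adjustment and a threshold of 0.05. Where nothing names separate animals, the p-values measure only the spread between arrays. The scripts were tested on simulated data. The members and lists were chosen with earlier results of these data known. All members are named, with the 5 miRNAs most like each (the first of them given here) and the 3 listed mesenchymal miRNAs with the largest differences in each direction. The alternatives were other scalings (75th percentile over all miRNAs, none, quantile), other values for undetected miRNAs (0.1, the lowest detected signal of each array), normexp with an offset of 50, all probes, no filter, a filter of detection on at least 12 of 24 or 6 of 12 arrays, a trend, no block, each lens group or tissue left out, lens and retina alone on the low side, all 8 tissues for the lens groups, and a ratio of 3 in place of 2. The 12 arrays alone for the pairs, and the miRNAs at the floor on every array left out, were added after the data were seen. Tables were handled in Python 3.11.15 with pandas 2.3.3 and numpy 2.4.6, exact tests were run with scipy 1.17.1, and plots were drawn with matplotlib 3.10.9.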

Additional observations from a re-analysis of the deposited data

How the results depend on the processing

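The 75th percentile over all miRNAs falls on undetected values and equals no scaling, so that the values of the report without scaling hold for both, including the reversed iris and cornea differences of 0.14, 0.10 and 0.30 and the RPE/choroid and cornea difference of 1.03. Under normexp the RPE/choroid and cornea difference of miR-199a-5p was −0.35 and the iris and cornea difference of miR-214-3p −0.96. Differences not called in either setting were given no direction. The differences of the 4 tissues to lens, retina and brain kept direction and threshold under every alternative run, with 2.63 to 8.74 for miR-199a-3p, 2.55 to 7.43 for miR-199b-5p, 0.73 to 8.34 for miR-199a-5p and 1.17 to 8.01 for miR-214-3p. miR-199a-5p and miR-214-3p entered only through the tissues where they were high, so that the kept direction is no support for them. miR-214-3p, detected on 11 arrays, was not in the fit that required 12. The count of miRNAs lower in the 4 tissues fell to 87 with detection required on at least 12 of 24 arrays. With undetected miRNAs at 0.1, 14 of the 24 member differences among the 4 tissues passed. For the 9 lost calls the differences were those of the report with larger SEs, and their adjusted p was 0.057 to 0.91. Summing all probes called 1 member between −30 D and 0 D. Leaving out 1 lens group gave 23 differences each time, 95 to 102 miRNAs higher and 128 to 136 lower, and leaving out 1 tissue gave 0 members called in each lens contrast. By the criteria of the study over the 8 tissues, with undetected values at the floor, 1 member changed for 0 D and 0 for −30 D. The count for 0 D was 0 without scaling, with quantile normalization and with normexp, 2 with the lowest detected signal of each array and 3 with undetected miRNAs at 0.1, which also gave 3 for −30 D. In the 4 tissues alone, 0.1 gave 18.3% of all miRNA and tissue pairs for 0 D and 22.9% for −30 D. Shares over all 8 tissues, for the 14 differences and for the 1 member with all probes summed are not given. These counts show only how calls depend on the setting and are no result about the members. No paired analysis was possible because no tissue and lens group had more than 1 array to pair by number, beyond the matching by tissue in the lens fit and by slide in the tissue fit. The lens arrays had the highest detection limits for the members, from 21.9 up to 27.6 as sums over probes. Their lowest detected signals of any miRNA were 6.18 to 9.61.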
